A study of Mus musculus with 8 samples.

Results

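The comparison described here was between MitoPositive and MitoNegative CD8 T cells re-isolated from the spleen 7 days after transfer. Of 11584 barcodes in the 3 day 7 libraries, 10794 passed the filters in spleen and tumor together, and 8725 of these carried a spleen hashtag, 3501 in the MitoPositive arm and 5224 in the MitoNegative arm. A barcode was kept with at least 500 detected genes, less than 15% of its unique molecular identifiers (UMIs, 1 per captured RNA molecule) from mitochondrially encoded genes, and a leading hashtag with 10 or more UMIs that exceeded the second hashtag 3 times or more. Kept cells were summed per hashtagged sample, which gave 3 spleen samples per arm, 1 from each of 3 donor mice, out of 12 day 7 samples and 18 hashtagged samples in the whole series.

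In the study, activated CD8 T cells of the 3 donors were grown together with bone marrow stromal cells (BMSCs) whose mitochondria carried the red fluorescent protein dsRed. T cells with dsRed, which had received stromal mitochondria, were sorted as MitoPositive, and T cells without dsRed from the same culture as MitoNegative. Each fraction was injected into B6 mice bearing B16KVP tumors, and transferred cells were recovered by flow cytometry from spleen and tumor. Both spleen groups therefore shared donor, activation, culture together with BMSCs, transfer, a tumor-bearing B6 host and 7 days in vivo, and the names refer to dsRed at transfer, not at recovery. The strain, sex and age of the donors are not given in the sources used here. In the deposited sample list the 2 arms of a donor had different recipient codes, whereas the spleen and tumor of an arm shared theirs, so the arm and the recipients cannot be told apart. The library is the donor, and p-values measure the spread between samples within libraries.

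The arm of a spleen cell was read from a 15-base hashtag, a DNA barcode on an antibody that binds the cell surface. The pair is shown because it carries the whole assignment of cells to arms, with capitals marking the 11 positions at which the 2 sequences differ.
H1, spleen MitoPositive: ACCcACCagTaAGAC
H2, spleen MitoNegative: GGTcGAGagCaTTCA

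CD8 T cells that meet antigen divide quickly, arm themselves with granzymes and chemokines, and then contract to a smaller pool that stops dividing, leaves lymphoid tissue through changed adhesion and chemokine receptors, and survives on cytokine signals. Entry into S phase is driven by E2F factors that turn on replication genes, and mitotic genes are turned on later by the MuvB complex with B-MYB, which acts at CHR elements of promoters, many of which also hold CCAAT boxes bound by NF-Y. Stromal cells can pass whole mitochondria to T cells through membrane nanotubes, and the comparison asked what the cells that had received them looked like in lymphoid tissue a week later.

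The 3 MitoPositive samples held 1148, 2303 and 50 cells with 7165581, 12853423 and 325046 UMIs (donors 1, 2 and 3, the order used throughout). MitoNegative samples held 3429, 1237 and 558 cells with 26620208, 7951180 and 4198561 UMIs. The median depth per cell was 5288 to 6193.5 UMIs in the first arm and 5791 to 7224.5 in the second, and 10 barcodes occurred in more than 1 library. Levels are given in CPM, the summed UMIs of a gene scaled to a common library total with the trimmed mean of M values (TMM), and MitoPositive values stand before MitoNegative ones. A single UMI was worth 2.84 CPM in the 50-cell sample and 0.0378 to 0.215 CPM in the other 5, so a gene at 0 in MitoPositive donor 3 may have a level of up to 8.51 CPM (3 UMIs, counting error only). T cell identity was plain in every sample, with Cd3d at 1111, 1094 and 904 CPM in the MitoPositive and 1131, 1131 and 923 CPM in the MitoNegative samples, and 93.4% to 98.6% of cells having a Cd3d, Cd3e or Cd3g UMI. Cd8a, the CD8 alpha chain, was at 361, 356 and 361 against 440.2, 413 and 335 CPM, and the 3 markers of CD4 and regulatory T cells summed to at most 41 CPM in any sample. Myeloid genes were highest in MitoPositive donor 3 and B cell genes in MitoNegative donor 3: the 7 myeloid genes summed to 246, 243 and 805 against 234, 256 and 305 CPM, and the 6 B cell genes to 138, 444 and 68.2 against 132, 191 and 2293 CPM. The 6 stromal genes summed to at most 1.29 CPM in any sample, with Col3a1 at 0, and the 5 melanoma genes reached 132 CPM in MitoPositive donor 2 and at most 30.9 CPM elsewhere.

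Of 12047 genes tested, 320 (2.66%) differed between the arms at an adjusted p under 0.05 in edgeR's quasi-likelihood test with the library as a block. Fold changes are MitoPositive over MitoNegative, and ± gives the SE of a log2 fold change. MitoPositive cells had higher levels of 102 genes (0.847%) and lower levels of 218 (1.81%). Among the 320 genes the median size of the log2 fold change was 1.46, and 297 had the same sign in all 3 donors, as did 40.0% of all genes tested. The difference was largest in donor 1 for 210 of them and in donor 3 for 76. In 281 of the called genes the 3 samples of one arm lay wholly above those of the other, against 18.6% of all genes tested. The genes were called on these same samples, so both the equal signs and the lack of overlap follow in part from the selection and are descriptions only. Without the donor 1 library no gene passed in edgeR, and 713 of 12410 genes had an unadjusted p under 0.05, a share near that threshold. All 320 kept their direction there, but they were chosen in a fit that included donors 2 and 3, so this is not independent support. Without donor 2 there were 52 calls (48 of the 320), and without donor 3 there were 889 (310 of the 320). With HTODemux, the hashtag caller of Seurat, which kept 599, 539 and 537 MitoNegative cells, 54 genes passed, 53 of them among the 320.

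**Figure D1:**
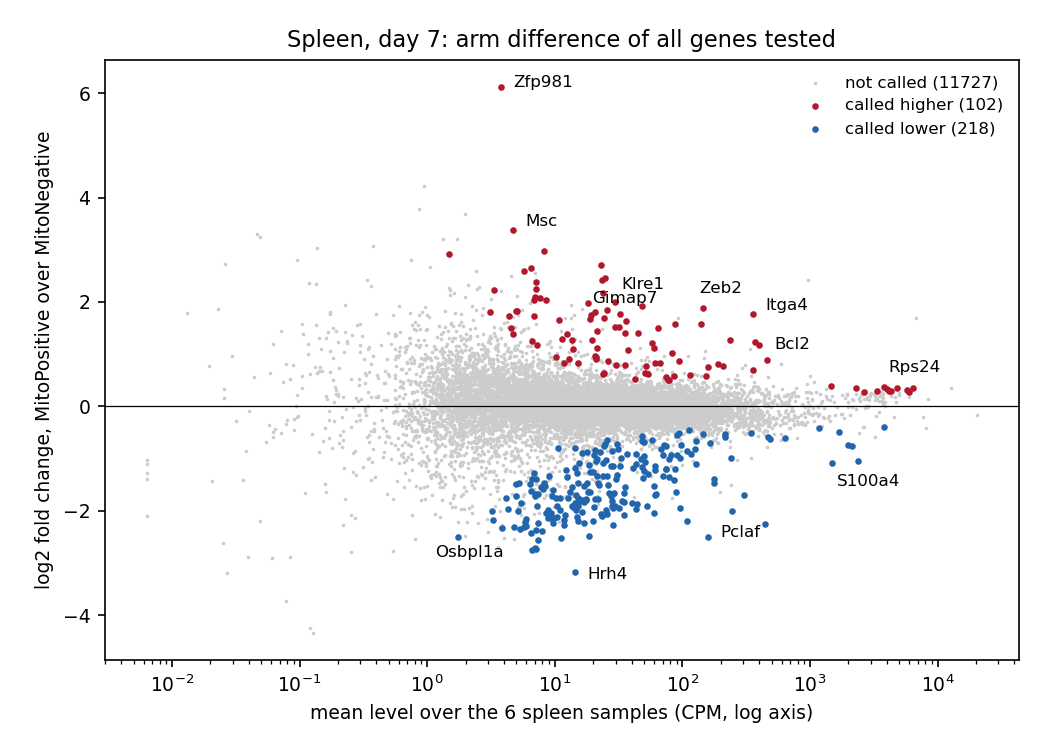
Each point is 1 of 12047 genes, with its mean level over the 6 spleen samples (CPM, log axis) against the log2 fold change of MitoPositive over MitoNegative. Red points are the 102 genes called higher and blue points the 218 called lower, with Zfp981 highest and Hrh4 lowest among them.

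Of the 47 gene lists, those of cell division held the most lower genes. Of 50 S phase genes tested, 27 were lower and none was higher in MitoPositive cells, with a median log2 fold change of -1.38 against -0.0005 over all genes tested. Of 64 G2/M genes, 26 were lower and none higher, with a median of -1.50, and all 64 estimates were negative. Of 57 replication-dependent histone genes, 21 were lower and none higher, with a median of -1.42. Together these lists supplied 74 of the 218 lower genes. The S phase genes summed to 1060, 1178 and 972 CPM in the MitoPositive and 3564, 2375 and 1776 CPM in the MitoNegative samples, and the G2/M genes to 2480, 2612 and 5376 and 7816, 4900 and 4941 CPM. The S phase sums did not overlap, whereas the G2/M sum of MitoPositive donor 3 lay above those of MitoNegative donors 2 and 3. In that donor the median difference of the G2/M genes was 0.18, against -2.41 in donor 1 and -1.18 in donor 2. Without the donor 1 library the 3 list medians were -0.95, -0.80 and -0.89 with no call, and with HTODemux -1.15, -1.20 and -1.18 with 1 call, a histone.

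Pclaf, which binds the replication clamp PCNA, had the lowest fold change of the S phase list, at 38, 51.9 and 54 against 415, 218 and 175 CPM. The arms were far apart in every donor, at -2.50 ± 0.43, adjusted p = 0.014. Mcm10, needed to fire replication origins, stood at 1.38, 2.35 and 2.84 against 13.3, 9.98 and 6.04 CPM, a log2 fold change of -2.29 ± 0.44, adjusted p = 0.023. Cdc45, part of the replicative helicase, was at 4.15, 4.86 and 2.84 against 30.2, 17.8 and 11.2 CPM, and the groups did not overlap (-2.17 ± 0.42, adjusted p = 0.023). Cdc6, the helicase loader, was at 3.32, 3.61 and 0 against 21.6, 14.2 and 9.92 CPM, again without overlap (-2.14 ± 0.46, adjusted p = 0.032). In MitoPositive donor 3 the Mcm10 and Cdc45 values were 1 UMI each and Cdc6 had none, so counting error is large there. Rrm2, the ribonucleotide reductase subunit that limits nucleotide supply, fell by 2.03, and Clspn, a checkpoint adaptor, fell by 2.05 on the log2 scale.

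Among the mitotic genes, Ccna2 (cyclin A2) was at 6.09, 9.41 and 25.6 against 61.7, 35.3 and 33.2 CPM, a log2 fold change of -2.26 ± 0.43, adjusted p = 0.021. Cdk1, the mitotic kinase, chosen after its values were seen as an example of a promoter, was at 10.4, 17.6 and 42.6 against 93.6, 50.1 and 44 CPM and fell by 1.96 (adjusted p = 0.027). For Ccna2 the groups did not overlap, and for Cdk1 the donor 3 samples were nearly level. Bub1 and Ttk, kinases of the spindle checkpoint, had log2 fold changes of -2.13 ± 0.46 and -2.12 ± 0.40 (adjusted p = 0.032 and 0.021). Melk and Pbk, mitotic kinases in neither cycle list, were among the 12 largest decreases, at -2.56 and -2.52. Hist1h2an, a replication-dependent H2A gene, fell by 2.74 and Hist1h3c, an H3 gene, by 2.48, though histone genes are near-identical copies between which reads may be divided. The histones summed to 489.8, 628 and 893 against 2917, 1690 and 1529 CPM, with every MitoPositive sample below every MitoNegative one. Cdkn2c, an inhibitor of the cyclin D kinases, was the 1 call among 12 cell cycle inhibitors tested and was lower, at -0.81 ± 0.19, adjusted p = 0.049.

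Counting per cell gave the spread behind these sums. Each cell was thinned to 3000 UMIs, which left 48 to 2024 MitoPositive and 541 to 3054 MitoNegative cells per sample (2 to 279 and 17 to 375 cells per sample were too shallow), and the UMIs of the 114 cycle genes were counted. The mean was 9.95, 9.88 and 17.2 cycle UMIs per MitoPositive cell and 27.7, 18.3 and 17.8 per MitoNegative cell. Every MitoPositive mean was below every MitoNegative mean, with averages of 12.4 ± 4.22 and 21.3 ± 5.56 (SD, n = 3) and an exact two-sided permutation p of 0.1, the smallest that 3 against 3 samples allow. With donors as pairs the exact paired permutation p was 0.25, the smallest that 3 pairs allow, and the donor 3 pair was nearly level. The unthinned share of cycle UMIs was 0.357%, 0.376% and 0.687% against 1.13%, 0.734% and 0.742%. Medians were close, at 8, 7 and 9.5 against 12, 9 and 9 UMIs, and the arms parted in the upper tail. Cells with 20 or more cycle UMIs made up 3.85%, 5.29% and 8.33% of MitoPositive and 34.9%, 20.1% and 15% of MitoNegative cells, and the 90th percentile was 14, 14 and 17.6 against 82, 50.4 and 40 UMIs. The 95th percentile was 17, 20 and 81.1 against 108, 80.7 and 89 UMIs. In donor 3 the 2 tails thus reached about as far, with only 48 MitoPositive cells. When the fit was repeated on cells with under 0.5% cycle UMIs, an alternative chosen after the data were seen, 123 genes passed. That filter removes cells by the cycle genes themselves, so the cycle lists are not read from it. Of the 320 genes 275 could be tested in these cells, 241 kept their direction and 93 passed. These counts include the cycle and histone genes, so they cannot show how many of the other calls held.

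**Figure D2:**
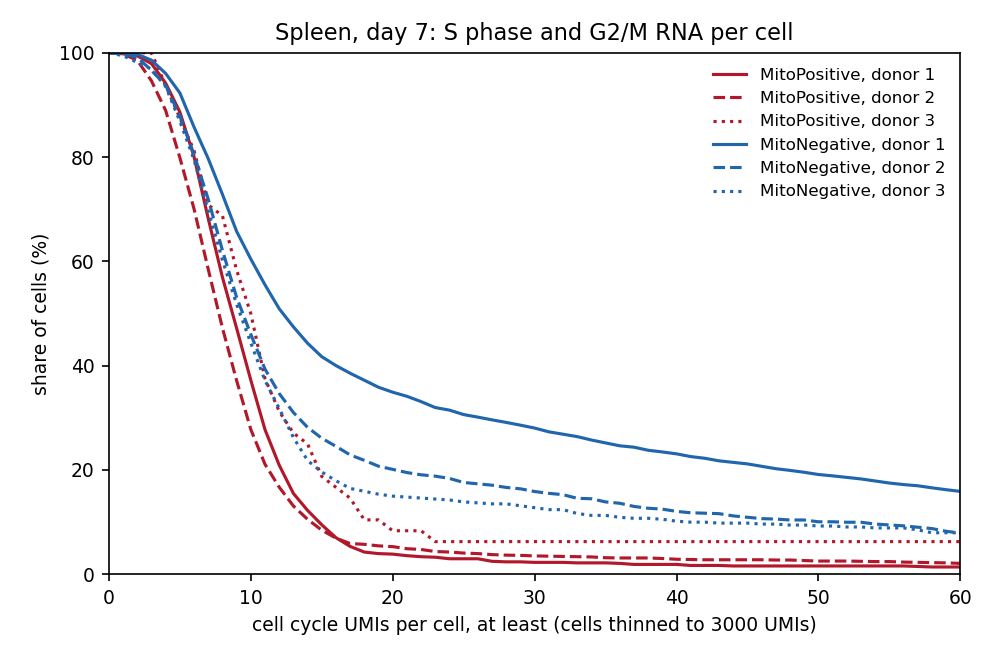
The share of cells (percent) with at least a given number of cell cycle UMIs after thinning to 3000 UMIs per cell, 1 line per spleen sample. At 20 UMIs the MitoNegative lines hold 15% to 34.9% of cells, against 3.85% to 8.33% on the MitoPositive lines. At 60 UMIs the line of MitoPositive donor 3 (48 cells) holds 6.25%, near the 7.89% and 7.95% of MitoNegative donors 2 and 3.

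Most promoters of the lower S phase genes held an E2F string, and most of the lower G2/M genes a CHR string. For 2 of these genes, the first by size of fold change that hold the element in this stretch, 150 bases of promoter are printed from RefSeq sequence (GRCm38.p6), 5′ to 3′ on the gene's strand, with the matches in capitals. In Cdc6 the capitals mark an E2F element, and in Cdk1 they mark CCAAT boxes (read as ATTGG on this strand) and CHR elements (TTTGAA).
Cdc6, chr11:98908001-98908150, plus strand: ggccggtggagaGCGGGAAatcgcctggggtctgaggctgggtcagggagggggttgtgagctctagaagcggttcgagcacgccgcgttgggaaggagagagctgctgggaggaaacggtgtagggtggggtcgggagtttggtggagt
Cdk1, chr10:69352913-69353062, minus strand: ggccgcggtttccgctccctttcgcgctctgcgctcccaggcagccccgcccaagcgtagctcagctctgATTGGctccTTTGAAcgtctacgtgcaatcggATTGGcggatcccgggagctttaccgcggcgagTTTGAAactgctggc

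Both stretches were taken from windows of 250 bases before to 50 after the RefSeq start, in which the E2F element of Cdc6 lay 138 bases before the start and the CHR elements of Cdk1 71 and 15 bases before it. The GENCODE annotation places both starts elsewhere. There Cdc6 starts at chr11:98907801, so its whole printed stretch, with the E2F element, lies inside the gene. Cdk1 starts at chr10:69352938 on the minus strand, so the last bases of its stretch lie inside the gene. E2F elements were searched as TTCCCGC or TTGGCGC, CHR as TTTGAA or TTCGAA, and CCAAT boxes as CCAAT, on both strands. The strings TTGGCGC and ATTGG, the CCAAT box on the other strand, share bases and may overlap. A window was found for 9270 of the 12047 genes tested, and 12.8% of these held an E2F string, 14.5% a CHR string and 39.2% a CCAAT string. Of 20 lower S phase genes with a window, 13 (65.0%) held an E2F string, and of 22 lower G2/M genes with a window, 19 (86.4%) held a CHR string and 86.4% a CCAAT string. The share was 52.6% for E2F over all S phase genes with a window and 80.0% for CHR over all G2/M genes with a window. Among the 107 lower genes with a window that were neither cycle nor histone genes, 23.4% held an E2F string and 23.4% a CHR string, and among 79 higher genes 8.86% and 17.7%. None of the 21 lower histone genes had a window. An E-box string, CAGGTG, to which ZEB factors bind, was in 15.4% of lower, 16.5% of higher and 16.7% of all windows. Letter matches are descriptions and not binding sites.

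Itga4, Zeb2 and Cx3cr1, genes of adhesion and of effector differentiation, were higher in MitoPositive cells. Itga4, the integrin chain that binds VCAM1, stood at 605, 451 and 594 against 138, 241 and 124 CPM, and every MitoPositive sample exceeded every MitoNegative one (log2 fold change 1.78 ± 0.31, adjusted p = 0.016). It was the 1 call among 17 integrin genes, whose median was 0.09. Zeb2, a repressor that drives terminal effector differentiation, was at 148, 145 and 412 against 36.7, 65.7 and 67.9 CPM (1.88 ± 0.29, adjusted p = 0.01). Cx3cr1, the fractalkine receptor of effector cells in the circulation, was at 92.5, 76.7 and 242 against 31.4, 53 and 28.2 CPM (1.57 ± 0.34, adjusted p = 0.033). For both genes MitoPositive donor 3 was far above the other samples, as it was for the myeloid genes (Lyz2, the myeloid lysozyme, 10.5, 12.9 and 478 against 13.9, 2.74 and 39.9 CPM). Without that 1 sample Zeb2 had a log2 fold change of 1.48 (adjusted p = 0.016) and Cx3cr1 of 1.14 (adjusted p = 0.06), and in cells with a Cd3 UMI the values were 2.25 and 1.55 (adjusted p = 0.0072 and 0.014). In cells whose Trbv UMIs were all of Trbv14, the main receptor segment of these cells, Cx3cr1 did not pass, at 0.84 (adjusted p = 0.15), and Zeb2 passed.

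Of the other effector transcription factors, Rora, a nuclear receptor, and Zbtb32, a repressor induced by activation, were lower, at -0.75 ± 0.18 and -0.85 ± 0.20 (adjusted p = 0.048 and 0.046). With Zeb2 they made 1 higher and 2 lower calls among 16 such factors, with a median of 0.34. Stat4, which signals for interleukin 12, had 335, 303 and 329.8 against 229, 216 and 236 CPM, with no overlap, and did not pass (0.50 ± 0.13, adjusted p = 0.057). Among 18 homing genes, Cx3cr1 was higher and Gpr183, the oxysterol receptor that positions lymphocytes within the spleen, was lower, at 71.1, 53.7 and 73.9 against 153, 97.6 and 129 CPM (-0.98 ± 0.15, adjusted p = 0.01). The exit receptor S1pr1 (0.18) and its activator Klf2 (0.33) did not pass.

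Cytotoxic genes divided into a few higher members and many without a call: 2 of 16 were higher, none was lower, and the median was -0.07. Gzmk, granzyme K, was at 36.1, 30.3 and 31.3 against 8.42, 15.7 and 3.02 CPM, with no overlap (1.80 ± 0.38, adjusted p = 0.029). Fasl, the ligand of the death receptor Fas, was at 30.2, 28 and 48.3 against 19.2, 16.8 and 14.7 CPM (0.86 ± 0.19, adjusted p = 0.039). In cells with Trbv14 as their only Trbv segment neither passed, with Gzmk at 1.00 and Fasl at 0.48 (adjusted p = 0.16 and 0.27). Gzma, granzyme A, had the larger values, at 1298, 1102 and 2465 against 218, 349.9 and 342 CPM, with a log2 fold change that did not pass (2.41 ± 0.81, adjusted p = 0.16). The same was true of Ccl5, a chemokine stored by memory and effector cells, at 10730, 9607 and 10130 against 2784, 5237 and 2406 CPM (1.70 ± 0.52, adjusted p = 0.12). In both genes the groups did not overlap. Nkg7, a cytotoxic granule protein, had 1442, 1327 and 1177 against 1763, 1728 and 1075 CPM, and its arms overlapped.

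Klre1, a lectin-like killer cell receptor, was the 1 call among 14 killer receptors, at 59.3, 63.2 and 111 against 14, 19.3 and 22.9 CPM (1.93 ± 0.23, adjusted p = 0.0028). The median of the list was 0.93 in the fit, and 0.46, 0.44 and -0.28 in donors 1, 2 and 3. The list sums overlapped between arms, at 1332, 1246 and 1561 against 1482, 1302 and 1011 CPM. Klrg1, a marker of short-lived effectors in the same list, was at 8.71, 8.39 and 51.2 against 1.74, 5.61 and 4.96 CPM and did not pass (1.94 ± 0.56, adjusted p = 0.092), and Klrk1, the NKG2D receptor, was at 0.32. The 6 markers of NK and innate-like cells, of which Klre1 is one, summed to 167, 173 and 407 against 77.2, 101 and 183 CPM. Their ranges overlapped through MitoNegative donor 3. All 5 members tested had positive log2 fold changes, with a median of 0.69 in the fit and 0.96, 0.48 and 1.09 in donors 1, 2 and 3, and Klre1 was the 1 call. The defining NK gene Ncr1, too low to be tested, stood at 0, 1.41 and 0 CPM in the MitoPositive samples and 0, 0 and 10.8 CPM in the MitoNegative samples. For Tyrobp and Fcer1g, the adaptors of NK and myeloid cells, MitoPositive donor 3 had 131 and 128 CPM, above every other sample. In cells with a Cd3 UMI Klre1 had a log2 fold change of 2.10, and in cells with the Trbv14 receptor segment alone 1.21 (adjusted p = 0.00025 and 0.0041).

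The calls among cytokine receptors were higher in MitoPositive cells, and those among cytokines were lower. Il2ra, the high-affinity interleukin 2 receptor chain, was at 29.2, 23.7 and 37 against 6.45, 10.6 and 7.76 CPM, with no overlap (1.76 ± 0.21, adjusted p = 0.003). Il2 itself was at 4.84, 6.67 and 2.84 against 13.9, 17.3 and 16 CPM, again with no overlap (-1.76 ± 0.37, adjusted p = 0.029). Ifngr1, the interferon gamma receptor, was at 225, 232 and 267 against 128, 166 and 114 CPM (0.81 ± 0.16, adjusted p = 0.023). Il12rb2, the signalling chain of the interleukin 12 receptor, was at 30.2, 31.9 and 14.2 against 18.5, 13.6 and 17.2 CPM, and there MitoPositive donor 3 was below 2 of the MitoNegative samples (0.91 ± 0.21, adjusted p = 0.041). These were 3 higher and no lower calls among 24 cytokine receptors, with a median of 0.17. Il7r, the interleukin 7 receptor of memory cells, did not pass at 0.33.

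Among 18 cytokines and chemokines 2 were lower and none higher, with a median of -0.39. Besides Il2 these held Ccl3, an inflammatory chemokine made after T cell receptor signals, at 3.60, 4.79 and 2.84 against 10.9, 16.8 and 13.8 CPM (-1.98 ± 0.42, adjusted p = 0.029). Ccl4, its neighbour and partner, had 66.3, 46.5 and 54 against 92.4, 138 and 91.4 CPM without overlap and did not pass (-1.14 ± 0.35, adjusted p = 0.12). None of 25 activation and immediate early genes and none of 13 genes of cytokine feedback passed, with a median of 0.08 for the first. In MitoPositive donor 3 the Il2 and Ccl3 values were 1 UMI each. The summed RNA of the list went the other way, without overlap, at 11800, 10570 and 10960 against 3751, 6263 and 3257 CPM. Most of that sum was Ccl5, a member described above that did not pass.

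Inhibitory receptors and exhaustion genes went both ways, with 2 higher and 3 lower of 19 and a median of -0.52. Pdcd1, which encodes PD-1, was at 11.9, 11.6 and 14.2 against 29.8, 42.8 and 21.4 CPM, so that each MitoPositive sample was lower than each MitoNegative one (-1.47 ± 0.19, adjusted p = 0.0041). Havcr2, which encodes TIM-3, was at 9.54, 4.32 and 17.1 against 26.9, 12.2 and 21.8 CPM with overlapping arms (-1.46 ± 0.35, adjusted p = 0.05). Cd160, a receptor for HVEM, was at 75.1, 83.5 and 79.6 against 171, 144 and 93.8 CPM (-0.85 ± 0.16, adjusted p = 0.022). Tox, the transcription factor of the exhausted state, had 152, 188 and 93.8 against 209, 235 and 229 CPM and did not pass (-0.60 ± 0.17, adjusted p = 0.084).

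The higher members of that list were Entpd1 and Lilrb4a. Entpd1 encodes CD39, an enzyme that degrades extracellular ATP, and stood at 44.4, 43.4 and 59.7 against 9.59, 13.6 and 24.8 CPM (1.76 ± 0.19, adjusted p = 0.0018). Lilrb4a, an inhibitory immunoglobulin-like receptor, was at 34.6, 37.4 and 42.6 against 5.54, 10.1 and 12.1 CPM (2.17 ± 0.26, adjusted p = 0.003), and its near-identical neighbour Lilr4b had a log2 fold change of 2.43 ± 0.43, so that reads may be divided between them. In both Entpd1 and Lilrb4a the groups were well apart. Slamf1, a self-ligand receptor of activated lymphocytes, was the 1 lower call among 16 costimulatory receptors, at 30.3, 29.1 and 28.4 against 76.3, 56.4 and 67.5 CPM (-1.16 ± 0.19, adjusted p = 0.013).

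**Figure D3:**
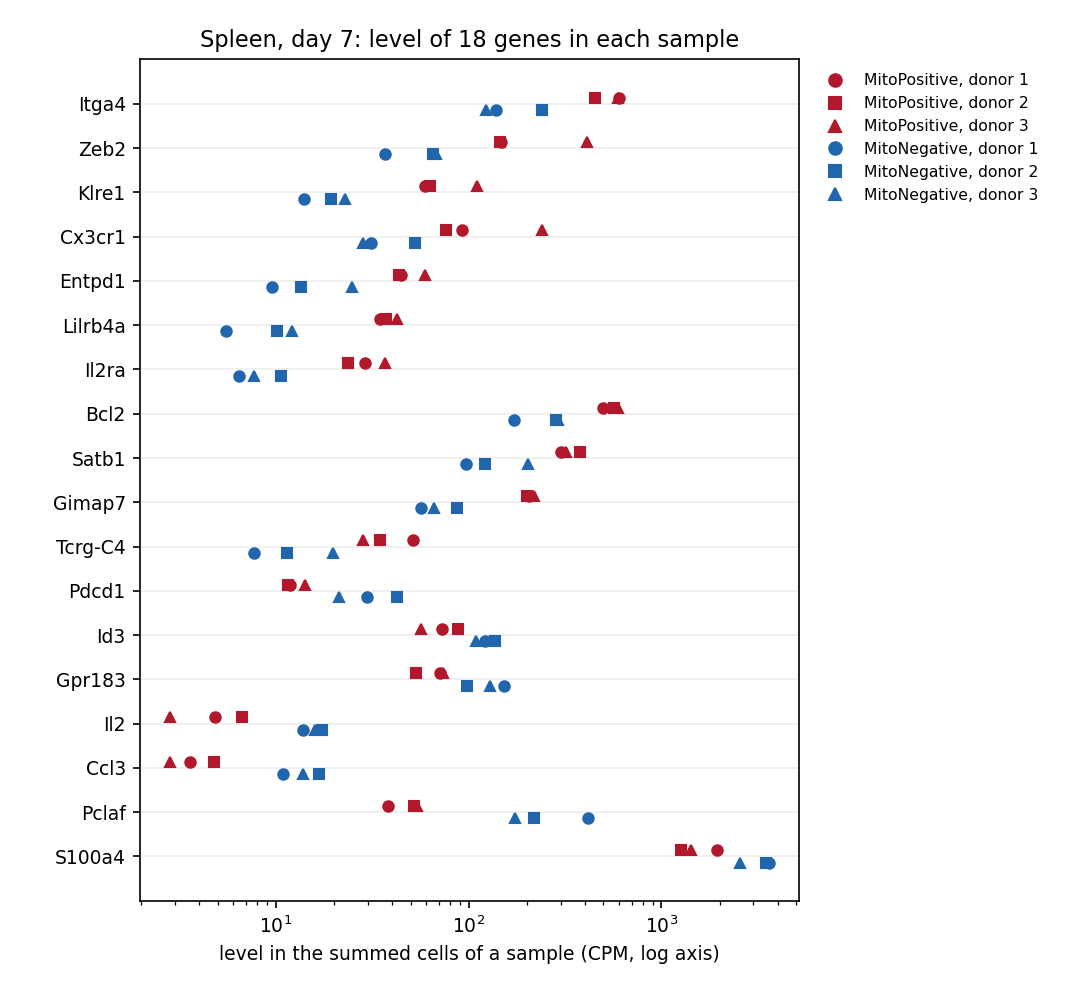
Level in each spleen sample (CPM, log axis) of 18 genes called in the comparison, 1 symbol per donor, red for MitoPositive and blue for MitoNegative. In Itga4 down to Tcrg-C4 the red symbols lie to the right of all blue ones, and from Pdcd1 down to S100a4 to the left.

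Of 25 memory and stem genes 2 were higher and 1 was lower, with a median of 0.31. Bcl2, the anti-apoptotic protein of memory T cells, was at 499.5, 569.7 and 597 against 172, 284 and 292 CPM (1.18 ± 0.22, adjusted p = 0.022). Satb1, a chromatin organiser of T cells, was at 301, 377 and 318 against 97.3, 121 and 204 CPM (1.26 ± 0.29, adjusted p = 0.043). Both were higher in each MitoPositive sample than in any MitoNegative one. Neither passed without the MitoPositive donor 3 sample, and Satb1 also did not pass with HTODemux or without donor 2. Id3, an inhibitor of E proteins linked to memory precursors, was at 73.2, 88.3 and 56.9 against 121, 137 and 109.8 CPM (-0.74 ± 0.13, adjusted p = 0.014), and it did not pass in cells with Trbv14 alone (-0.28, adjusted p = 0.43). Foxp1, a quiescence factor of the same list, had 652, 785 and 816 against 353, 391 and 535 CPM and did not pass (0.82 ± 0.24, adjusted p = 0.094). In the apoptosis list Bcl2 and Fasl were higher and Bcl2a1d, a Bcl2 relative with near-identical copies, was lower at -0.77 ± 0.18.

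The Gimap genes, GTPases that sustain resting lymphocytes, all had positive log2 fold changes, with a median of 0.53 over 8 genes. In 7 of the 8 the arms did not overlap, against 18.6% of all genes tested. Gimap7 was at 206, 201 and 219 against 56.9, 86.9 and 66 CPM (1.57 ± 0.23, adjusted p = 0.0076). Gimap4 was at 482, 455 and 392 against 249, 315 and 258 CPM (0.69 ± 0.17, adjusted p = 0.048). These were the 2 members that passed. The 8 genes summed to 2259, 2237 and 2186 CPM in the MitoPositive and 1244, 1541 and 1382 CPM in the MitoNegative samples.

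T cell receptor gamma genes were higher in MitoPositive cells, in 4 of 8 genes tested of the gamma delta receptor, with a median of 1.75. Tcrg-C1, a gamma constant region, was at 11.1, 16.1 and 5.69 against 1.14, 2.62 and 2.16 CPM (2.65 ± 0.43, adjusted p = 0.012). Tcrg-C2 was at 17.8, 42.5 and 65.4 against 2.08, 12.2 and 8.84 CPM (2.47 ± 0.36, adjusted p = 0.008), and the 2 constant regions are near-identical. Trgv2, a gamma variable segment, was at 23.1, 38.3 and 54 against 0.986, 13.1 and 8.41 CPM (2.71 ± 0.57, adjusted p = 0.03), and Tcrg-C4 was at 51.5, 34.6 and 28.4 against 7.73, 11.5 and 19.8 CPM (1.85 ± 0.38, adjusted p = 0.027). None of these 4 overlapped between arms. The Tcrg-C1 value of MitoPositive donor 3, 5.69 CPM, was below the 8.51 CPM that 3 UMIs are worth there, so its separation is uncertain. The delta constant region Trdc, which is cut out when the alpha locus rearranges, was at 103, 98.6 and 42.6 against 90, 159.6 and 50.5 CPM, with overlapping arms (log2 fold change -0.27). Among 20 genes of the T cell receptor complex, Trbc2, a beta constant region, was the 1 call, at 3885, 3292 and 2721 against 4989, 4343 and 3652 CPM (-0.39 ± 0.08, adjusted p = 0.029), and it did not pass without any 1 of the libraries. Of cells with a Trbv UMI, 76.1%, 64.4% and 64.3% of MitoPositive and 94.7%, 89.3% and 81.0% of MitoNegative cells showed Trbv14 alone, and after thinning to 3000 UMIs the shares were 75.9%, 68.6% and 61.1% against 96.2%, 91.4% and 82.0%. In cells with Trbv14 alone the log2 fold changes were 3.16 for Tcrg-C1, 1.67 for Tcrg-C2 and 2.20 for Tcrg-C4, all past the threshold, and 1.94 for Trgv2 (adjusted p = 0.0504). Trbc2 was at -0.087 in these cells (adjusted p = 0.58). Other calls described here that did not pass in these cells were Il2 at -1.48, Il12rb2 at 0.66, Zbtb32 at -0.48, Anxa5 at -0.35 and Bcl2a1d at -0.48.

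Of 81 ribosomal protein genes, 12 were called higher, none was lower and 72 estimates were positive. In 14 of the 81 the arms did not overlap, against 18.6% of all genes tested. The median log2 fold change was 0.19 and the 12 calls lay between 0.27 and 0.38. Rpl13, a protein of the large subunit, was at 5285, 6193 and 4765 against 4168, 4651 and 3820 CPM (0.36 ± 0.07, adjusted p = 0.025). Rps24, a protein of the small subunit, was at 7000, 8314 and 6246 against 5519, 6313 and 5072 CPM (0.35 ± 0.07, adjusted p = 0.023). The Rpl13 samples of the arms did not overlap, and for Rps24 the MitoPositive donor 3 sample was just below MitoNegative donor 2, with a positive difference in each donor. The count of calls was 0 without the library block, without donor 1, without donor 2 and without MitoPositive donor 3, 4 without donor 3, 1 with no count filter and 3 in cells with a Cd3 UMI, while the median stayed between 0.15 and 0.25 in all 17 alternatives. Many ribosomal proteins have processed pseudogenes that can take a share of reads.

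Lists of mitochondrial energy metabolism held single calls or none, shares near the 2.66% called over all genes tested. The 13 mitochondrially encoded genes held no call, with a median of 0.03, and made up 1.83% to 2.25% of UMIs in the 6 samples. BMSC mitochondria bring their own genomes, and transcripts of the 2 sources are not separated in these counts. Of 80 nuclear genes of oxidative phosphorylation, 1 was lower, the median was -0.28 and 74 estimates were negative. That gene was Ndufa4, a subunit bound to cytochrome c oxidase, at 529, 559 and 426 against 928, 766 and 607 CPM (-0.59 ± 0.14, adjusted p = 0.049). Fh1, the fumarase of the tricarboxylic acid cycle, fell by 0.72 and was the 1 call of 24 in its list, and Tomm6, a small part of the outer membrane import pore, fell by 0.52 and was the 1 call of 30. Cox17, the copper carrier of cytochrome c oxidase, fell by 0.59. None of 21 glycolytic, 78 mitochondrial ribosomal, 17 mitochondrial dynamics, 18 Atf4 and serine or 20 cholesterol genes passed, and none of 37 proteasome genes, of which all 37 estimates were negative with a median of -0.23. Of the mitochondrial ribosomal estimates 69 were negative and 9 positive (median -0.25), and of the cholesterol estimates 17 and 3 (median -0.24). In the mitochondrial dynamics list 6 were negative and 11 positive (median 0.18).

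The most abundant of the lower genes included S100a4 and Ifi27l2a. S100a4, a calcium-binding protein of motile effector cells, was at 1932, 1267 and 1427 against 3622, 3481 and 2546 CPM (-1.05 ± 0.24, adjusted p = 0.042). Anxa5, an annexin of the same list, fell by 0.50, and these were the 2 calls of 18. Ifi27l2a, an interferon-induced mitochondrial protein, was at 1784, 1676 and 1262 against 3891, 2394 and 1897 CPM (-0.76 ± 0.14, adjusted p = 0.021) and was the 1 call of 29 interferon-stimulated genes, whose median was -0.20. None of 14 GTPases induced by interferon gamma and none of 17 MHC class I genes passed. Hmgb2, a chromatin protein that rises in dividing cells, fell by 1.09, Ptma (prothymosin alpha) by 0.74, Actg1 (gamma actin) by 0.50, Cfl1 (cofilin) by 0.42, Rbm3 (a cold-inducible RNA-binding protein) by 0.62 and Tuba4a (an alpha tubulin) by 0.63. In summed samples, fewer cells that express a gene and less of its RNA per cell cannot be told apart.

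**Figure D4:**
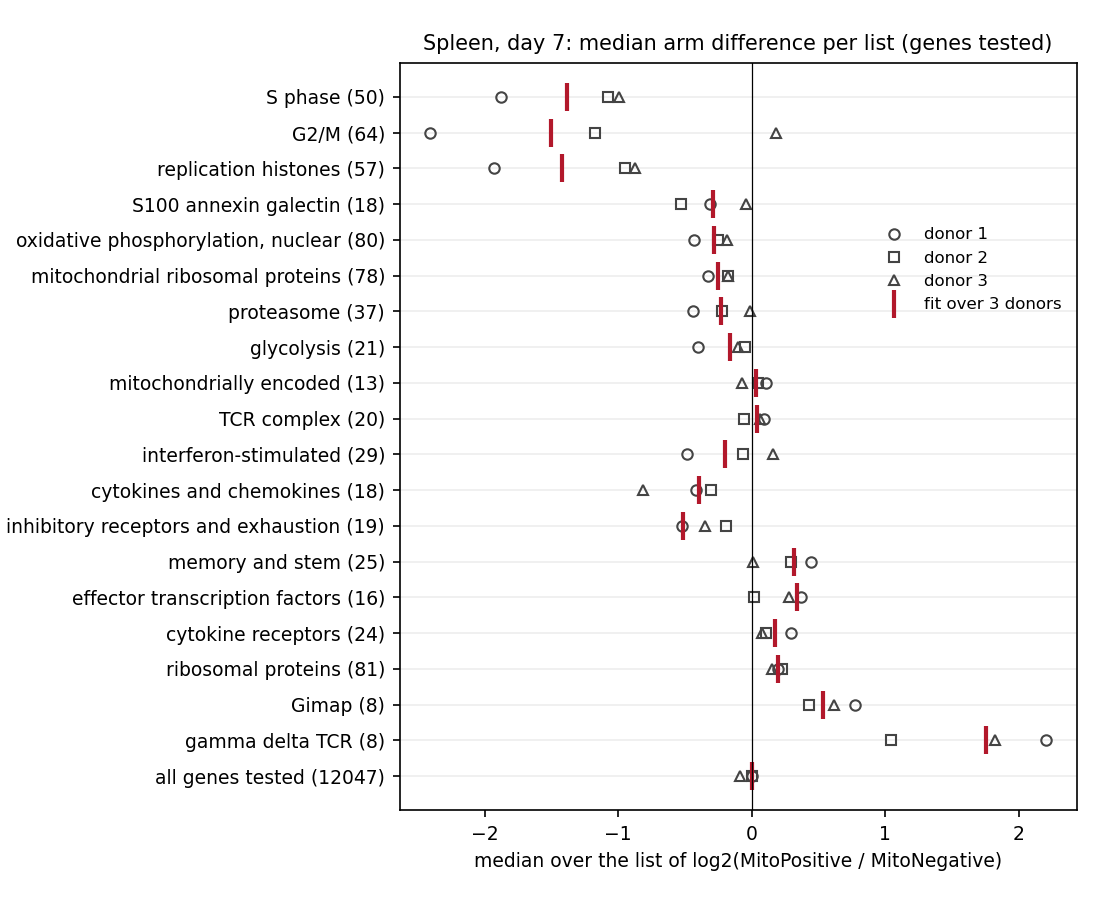
Median log2 ratio of MitoPositive over MitoNegative over the tested genes of each list (number of genes in parentheses), for donors 1, 2 and 3 as open symbols and for the fit over the 3 donors as a bar. The S phase, G2/M and histone lists lie to the left with medians of -1.38, -1.50 and -1.42, the Gimap and gamma delta receptor lists to the right with 0.53 and 1.75, and donor 3 stands apart from the others in the G2/M list at 0.18.

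The largest increase of all belonged to Zfp981, a gene of a cluster of KRAB zinc-finger repressors on chromosome 4 (chr4:146502027-146539395, plus strand, GRCm38). It had 38, 108 and 3 UMIs in the MitoPositive samples and 1, 2 and 0 in the MitoNegative samples, or 5.26, 8.47 and 8.53 against 0.0379, 0.249 and 0 CPM. Pooled over donors, 149 of 20344050 UMIs stood against 3 of 38769949, a ratio of 94.7 (exact 95% interval 31.8 to 464, counting error only). The fitted log2 fold change was 6.11 ± 0.58, adjusted p = 0.00069, though with so few MitoNegative UMIs it depends on the prior count. UMIs of the gene were found in 38, 92 and 3 MitoPositive cells (3.31%, 3.99% and 6.0%) and in 1, 2 and 0 MitoNegative cells (at most 0.162%, and 0 of 558 cells allows up to 0.659%, exact 95% limit). In cells thinned to 3000 UMIs the shares were 1.58%, 2.22% and 4.17%, and no MitoNegative cell held a UMI. The neighbours Zfp992 (chr4:146449023-146470292) and Zfp993 (chr4:146610961-146658160) had ratios of 1.79 and 1.63, and they are among 25 genes within 2 Mb with at least 100 UMIs, all of which lay between 0.339 and 1.79. In the tumor samples Zfp981 had 31, 160 and 127 UMIs in the MitoPositive and 0, 1 and 0 in the MitoNegative arm.

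Hrh4, the histamine H4 receptor, had the largest decrease among the called genes. The gene had 28, 33 and 0 UMIs in the MitoPositive and 763, 210 and 118 in the MitoNegative samples, or 3.87, 2.59 and 0 against 28.9, 26.2 and 25.4 CPM. The groups were far apart, with a log2 fold change of -3.18 ± 0.31, adjusted p = 0.00069. It was detected in 2.26%, 1.3% and 0% of MitoPositive cells (0 of 50 cells allows up to 7.11%, exact 95% limit) and in 16.9%, 13.8% and 15.8% of MitoNegative cells. After thinning to 3000 UMIs the shares were 1.28%, 0.791% and 0% against 7.92%, 6.76% and 7.21%. In tumor cells of either arm the share was at most 3.53%, and the day 0 culture had at most 1 UMI of it per sample.

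**Figure D5:**
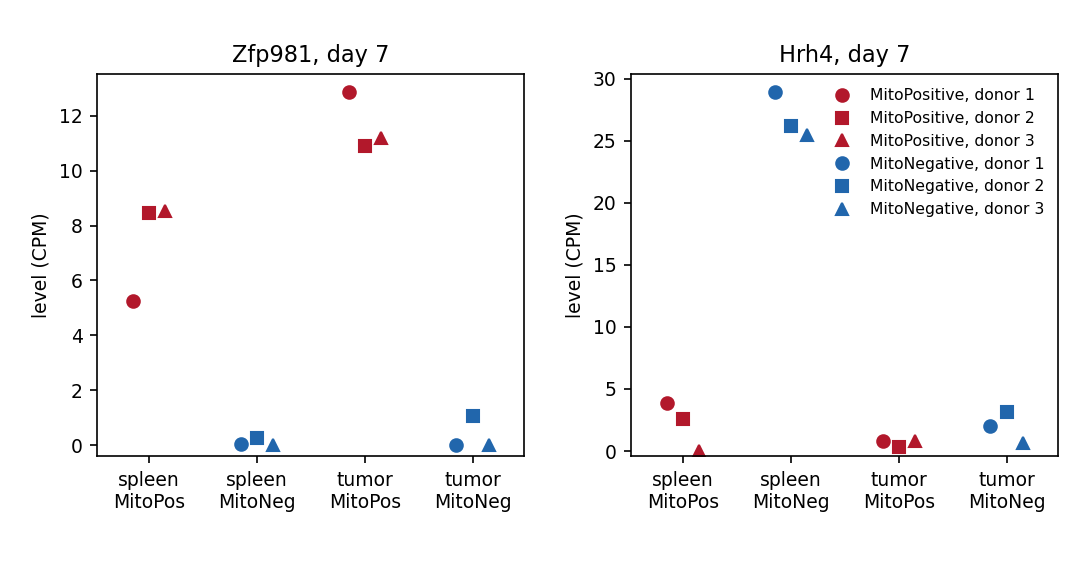
Level (CPM) of Zfp981 and Hrh4 in the 12 day 7 samples, 1 point per donor, by tissue and arm. Zfp981 lies at 5.26 to 8.53 CPM in the MitoPositive spleen samples and at most 0.249 CPM in the MitoNegative ones, and Hrh4 at 25.4 to 28.9 CPM in the MitoNegative spleen samples and at most 3.87 CPM in the MitoPositive ones.

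Among the other large increases, Msc, a bHLH repressor also called MyoR, was at 9.41, 2.90 and 14.2 against 0.569, 1.12 and 0 CPM (3.37 ± 0.77, adjusted p = 0.042). Esm1, a secreted proteoglycan of endothelium, was at 8.02, 5.57 and 31.3 against 0.607, 2.74 and 0.863 CPM (2.97 ± 0.68, adjusted p = 0.043). In both the MitoPositive samples lay above all MitoNegative samples, and without MitoPositive donor 3 the log2 fold changes were 2.97 for Msc and 2.47 for Esm1 (adjusted p = 0.086 and 0.11). Nbea (neurobeachin), Emilin2 (an extracellular matrix protein), Gpc1 (glypican 1) and Cntn1 (contactin 1) had log2 fold changes of 2.60, 2.38, 2.25 and 2.23. Among the other large decreases, Osbpl1a, an oxysterol-binding lipid transfer protein, was at 2.49, 1.41 and 0 against 16.8, 10.1 and 11 CPM (-2.72 ± 0.37, adjusted p = 0.0055). Sestd1, Ptgfrn and Nccrp1 fell by 2.50, 2.43 and 2.36 on the log2 scale. Of the called genes, 71 higher and 124 lower belonged to none of the 47 lists.

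The same arms in the tumor, in the same fit, gave 43 called genes (0.357%). The 2 tissues of an arm shared library and recipients. Of the 320 spleen calls 11 were also called in the tumor, which is 3.44% of the spleen and 25.6% of the tumor calls, and all 11 had the same direction. Zfp981 had a tumor log2 fold change of 5.54 ± 0.80, adjusted p = 0.031, Klre1 of 1.70 ± 0.25, adjusted p = 0.032, Il2 of -1.56 ± 0.29, adjusted p = 0.0493, and Ccl3 of -1.57 ± 0.28, adjusted p = 0.048. Rora and Zbtb32 were the other listed genes, at -1.20 and -1.30. The remaining 5, which lie outside the naming rule and were chosen after their values were seen, were Airn (spleen 1.09, tumor 1.06, a noncoding RNA antisense to Igf2r), Tspan32 (0.80 and 1.59), Eif2ak3 (0.62 and 0.85), Dennd4a (0.59 and 0.70) and Farp1 (-1.14 and -0.84).

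The cycle genes had lower levels in MitoPositive cells in the spleen fit, with tumor medians of 0.18 for the S phase list, 0.09 for the G2/M list and 0.11 for the histones, against 0.07 over all genes. The difference between the tissues was tested directly, as the spleen arm difference minus that of the tumor. No gene passed in edgeR (0.00%), with 1585 at an unadjusted p under 0.05, and DESeq2 called 165. The value for Pclaf was -2.90 (adjusted p = 0.095), from -2.50 in the spleen and 0.40 in the tumor. The arm differences of the 2 tissues are therefore given side by side and are not shown to differ by the main test.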

How the data were processed

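Single-cell RNA sequencing (Chromium 3' v3.1 with TotalSeq-B hashtags) of 3 libraries at day 7 was used. Per the file headers and the submitters' processing notes, the deposited matrices hold UMI counts per gene and barcode from Cell Ranger 7.0.0 on mm10 (GRCm38), not normalised, and the authors deposited a list of hashtagged samples. Seurat 4.0.5 is also named in those notes. The treatment of intronic and antisense reads is not given in the sources used here.

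UMIs of the kept cells were summed per hashtagged sample over 32285 genes. No separate removal of doublets was done beyond the hashtag rule. Genes that passed filterByExpr were scaled by TMM and fitted with edgeR 4.0.16 (R 4.3.3) over 12 samples, with tissue and arm groups and library as a block (6 residual degrees of freedom), and p-values of the quasi-likelihood test were adjusted by Benjamini-Hochberg at 0.05. The library pairs the arms, because the deposited list gives each library 1 donor. Deviations of same-library spleen samples from their group means correlated at -0.04, -0.05 and -0.03. The scripts were tested on simulated data. Members, lists and tests were chosen with earlier results of these data known. The text names the 12 largest called changes in each direction with 1 sign in the 3 donors, the 10 most abundant called genes in each direction, up to 6 genes per list and defining markers of cell types, from which some are described. Alternatives were other scalings, filters, hashtag callers, cell subsets, DESeq2 1.42.0, spleen samples alone, and each replicate left out. Intervals are exact 95% binomial and cover counting error only. Promoter windows came from RefSeq (GRCm38.p6), the first listed window of a gene.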

Additional observations from a re-analysis of the deposited data

Results flagged for a closer look

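A signal outside the spleen comparison concerned Zfp981 in the day 0 culture, which enters no test above. Its level was 25.5, 23.2 and 25.2 CPM in the MitoPositive samples of donors 1, 2 and 3 (180, 206 and 259 UMIs), above the 1.08, 0.858 and 0.324 CPM (6, 5 and 2 UMIs) of the MitoNegative samples. These samples were named from the deposited hashtag list. The labels' extraction protocol gives another map of the day 0 hashtags. Under it the 1.08 CPM sample (hashtag 2) would be MitoPositive and the 25.2 CPM sample (hashtag 5) MitoNegative, and the other samples would keep their arm.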

How the results depend on the processing

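Against 320 called genes, the count was 833 with no filter on low counts, 567 in DESeq2, 54 with HTODemux, 622 in cells with Trbv14 alone, 578 in cells thinned to 3000 UMIs, 745 with the spleen samples fitted alone, 856 in samples of at least 100 cells, 123 in cells with under 0.5% cycle UMIs and 200 without MitoPositive donor 3, the last 2 chosen after seeing the data. Leaving out 1 library gave 0 to 889 calls. For the tissue difference, with no call in the main test, the counts in that order, where they moved, were 804, 165, 133, 24, 212 and 154, with 41 at a hashtag margin of 10, 13 in cells with a Cd3 UMI, 4 with no mitochondrial limit, and 0 to 384 without 1 library.

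The fit with no replicate block gave 274 spleen calls, 65 higher and 209 lower, of which 241 were among the 320, and 2 calls for the tissue difference. Without the block 33 named calls did not pass, among them Il2, Ccl3, Esm1, Trgv2, Tcrg-C2, Il12rb2, Gimap4, Id3, Rora and the ribosomal genes, and no named gene changed direction. In cells with under 0.5% cycle UMIs the log2 fold changes of Cdk1 (0.33), Ptma (0.039) and Cdkn2c (0.084) reversed without passing; that set holds few dividing cells by construction. Of 83 called genes named, 69 could be tested in all 17 alternatives and the rest in 14 to 16. Of the 83, 80 kept their direction wherever tested, and 9 passed in each except without donor 1. The alternatives reuse samples in which these genes were called, so a kept direction is not independent support. The cycle difference per cell, -8.90 UMIs, was -4.50 to -13.1 without 1 library (exact permutation p = 0.33), and with a replicate block the exact paired permutation p was 0.25. A planned fit without cells holding 2 or more cycle genes was not run, since 0 to 36 cells per sample would have remained. In MitoPositive donor 3 depth limits any gene under 8.51 CPM. Without that sample 41 named calls did not pass, among them Bcl2, Satb1, Il2, Ccl3, Gzmk, Ifngr1, Gimap4 and S100a4. With HTODemux 58 named calls did not pass.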
